A study of Rattus norvegicus with 4 samples.

Results

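The report concerns 10 genes of heat shock proteins and chaperones, Hspa1a, Hspa8, Hsph1, Dnajb1, Hspa12b, Hsp90ab1, Hspd1, Hspe1, Hspb1 and Cryab, in visceral fat of obese and control rats. Members were taken by symbol: every probe set (a group of short array probes read out as 1 signal) whose platform annotation gives a listed gene as its single symbol. This found 11 probe sets of 9 genes, among 15866 probe sets and 10411 named genes in all. Dnajb1 and Hsp90ab1 had 2 probe sets each, and the one with the higher mean signal over the 4 arrays served as the main one. Hspa8 was represented only by a probe set annotated with 2 symbols, Haus8l2 and Hspa8, and so received no value. A second probe set that could read Hspa1a carries the symbols Hspa1b and Hspa1a together and was left out as well.

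The study measured total RNA from the visceral fat of Wistar rats, all male and aged 130 days, with 2 Obese and 2 Control samples, 1 single-colour array each. Labels name no diet, genotype or other origin of the obesity, and they do not say whether each sample was 1 animal or a pool. The p-values given here thus describe the spread between these 4 samples, some of which may be technical. Signals are on a linear scale as deposited. All 4 arrays carried strong signals of fat cell genes, as the label says, with Fabp4, a fatty acid binding protein of adipocytes, at 3092.3 and 3679.8 on the Obese arrays and 2853.1 and 3134.1 on the Control arrays. Obese replicate 1 stood apart in markers of other tissues: its 11 smooth muscle markers summed to 7025.4, against 3081.3 on Obese replicate 2 and 3080.6 and 3279.1 on the Control arrays. Its 8 measured mesothelial and epithelial markers summed to 2078, against 399.4 on Obese replicate 2 and 841.8 and 1008 on the Control arrays. In tissue RNA, more cells of a type and more RNA per cell cannot be told apart.

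Heat shock proteins bind unfolded or partly folded proteins and keep them from aggregating while they fold, move or are degraded. When proteins misfold, the transcription factor HSF1 binds heat shock elements, which are facing repeats of the unit GAA near the start of heat shock genes, and raises their transcription. Proteins of the HSP70 family work in cycles driven by ATP, with J-domain proteins such as Dnajb1 that load them with clients and exchange factors such as Hsph1 that release the nucleotide. HSP90 acts later on kinases and steroid receptors, the chaperonin HSP60 with its lid HSP10 folds proteins inside mitochondria, and small heat shock proteins hold unfolded clients without ATP.

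The promoters are shown because several of the listed genes are known targets of heat shock factor and because the windows could be searched for its element. RefSeq windows on the rat assembly GRCr8, each 250 bases before to 50 bases after the start site that the table uses, were found for 9 of the 10 genes, all but Cryab. That site was the annotated 5′ end of the gene except for Hspd1, where it lies 295 bases inside the gene, and Hsp90ab1, where it lies 174 bases inside. Capitals mark each pair of facing units, GAANNTTC or TTCNNGAA. Both motifs read the same on either strand, and pairs that overlap form a longer array. The windows of Hsph1 (chr12:10427118-10427417, plus strand), Dnajb1 (chr19:41431092-41431391, minus strand), Hspe1 (chr9:64084077-64084376, plus strand) and Hspb1 (chr12:26432252-26432551, minus strand) read, 5′ to 3′:
Hsph1: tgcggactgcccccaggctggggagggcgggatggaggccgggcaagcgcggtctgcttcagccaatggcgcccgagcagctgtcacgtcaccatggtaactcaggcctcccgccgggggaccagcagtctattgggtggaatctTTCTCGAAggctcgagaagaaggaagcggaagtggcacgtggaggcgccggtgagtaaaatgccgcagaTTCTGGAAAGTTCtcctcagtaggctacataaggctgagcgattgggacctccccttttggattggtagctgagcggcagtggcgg
Dnajb1: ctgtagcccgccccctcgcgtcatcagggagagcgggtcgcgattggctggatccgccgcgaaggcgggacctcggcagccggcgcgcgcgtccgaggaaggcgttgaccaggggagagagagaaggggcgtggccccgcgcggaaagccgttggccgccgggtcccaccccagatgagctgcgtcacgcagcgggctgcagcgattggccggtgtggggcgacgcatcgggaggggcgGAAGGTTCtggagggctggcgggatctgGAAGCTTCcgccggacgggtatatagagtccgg
Hspe1: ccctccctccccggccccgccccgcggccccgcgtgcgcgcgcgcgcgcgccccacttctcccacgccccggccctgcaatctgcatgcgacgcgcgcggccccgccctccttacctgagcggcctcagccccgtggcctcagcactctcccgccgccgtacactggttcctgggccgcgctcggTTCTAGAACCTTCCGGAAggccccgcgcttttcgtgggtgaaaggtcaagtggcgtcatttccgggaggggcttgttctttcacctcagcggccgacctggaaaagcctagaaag
Hspb1: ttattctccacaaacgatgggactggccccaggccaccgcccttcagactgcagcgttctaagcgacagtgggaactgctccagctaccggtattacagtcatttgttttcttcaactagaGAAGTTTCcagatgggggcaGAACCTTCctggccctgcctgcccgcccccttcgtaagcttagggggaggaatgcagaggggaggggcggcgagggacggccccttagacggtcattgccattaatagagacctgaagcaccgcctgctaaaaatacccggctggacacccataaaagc

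Hspd1 and Hspe1 lie head to head on chromosome 9, and the annotated spans of the genes overlap by 6 bases. Because the Hspd1 window was set at a site inside the gene, the 2 window start sites are 290 bases apart, and 211 bases of the windows are the same DNA. The run of overlapping pairs in the Hspe1 window, 18 bases long, is therefore also the run found in the Hspd1 window. It begins 65 bases upstream of the Hspe1 start and lies within the annotated span of Hspd1, 242 bases upstream of that window's start site. Hsph1 held 3 pairs, 2 of them overlapping in a run that begins 36 bases upstream of its start. Dnajb1 held a pair 11 bases upstream and another 17 bases downstream of its start, and Hspb1 held pairs at 129 and 109 bases upstream. The windows of Hspa1a, Hsp90ab1 and Hspa12b held 0 pairs, which says only that these letters are not in these windows. The window of Hsp90ab1 covers 76 bases before the annotated 5′ end of the gene and that of Hspd1 covers 0. Neither is comparable with the others. In all, 6 of 9 windows (66.7%) held at least 1 pair, against 17 of 73 windows (23.3%) of the wider chaperone list. The share was 11.8% over genes with a probe set and 15.9% over 33469 rat promoter windows. An array of at least 3 facing units was found in 4 of the 9 windows (44.4%), those of Hspa8, Hsph1, Hspd1 and Hspe1. Such an array lay in 4 of 73 windows (5.48%) of the wider list, 0.4% for genes with a probe set and 0.798% of all windows. In both counts of the 9 windows, Hspd1 and Hspe1 enter through the same 18 bases. A match is a description of the sequence and not a measured binding site.

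**Figure D1:**
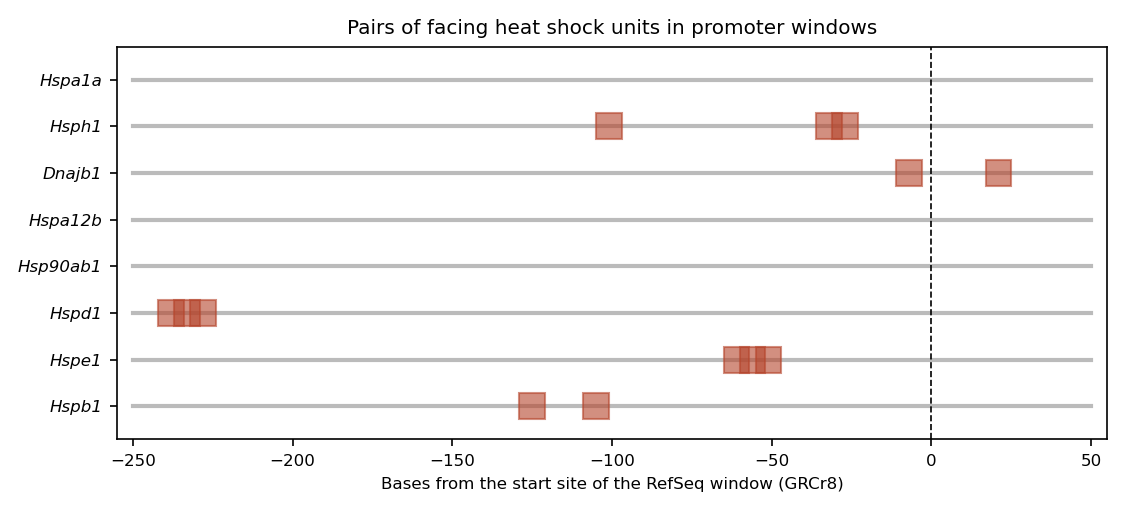
Pairs of facing heat shock units (boxes, 8 bases each) along the promoter windows of 8 listed genes with array values and a window; the x axis gives bases from the window's start site, marked by the dashed line. Hspd1 and Hspe1 show the same 18 bases seen from either gene, and Hspa1a, Hspa12b and Hsp90ab1 show 0 boxes.

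The comparison asked how the signals of these genes differed between obese and control fat. Each of the 9 measured genes had a higher mean log2 signal in Obese than in Control samples on its main probe set, and the largest well-measured difference was that of Hspa1a, the stress-inducible HSP70. Hsph1, Hspb1 and Dnajb1 lay higher on both Obese arrays than on both Control arrays, by smaller amounts. The mitochondrial chaperonin genes Hspd1 and Hspe1 overlapped between the groups, and the high mean of Cryab came from 1 Obese array. No gene passed the limma test after Benjamini-Hochberg adjustment over all probe sets: 0 of 12929 probe sets passed at 0.05, which is 0% of those tested (1073 had an unadjusted p under 0.05), so none of the differences below is a call. At an unadjusted p under 0.05, 4 of the 9 genes (Hspa1a, Hspa12b, Hsph1 and Hspb1) were higher and 0 lower, where 8.3% of all probe sets reached that level, 3.07% higher and 5.23% lower. Without Hspa12b, whose Control signals lay under the floor and whose direction the filter on dim signals fixed, the count was 3 of 8.

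Hspa1a encodes the HSP70 that cells make in quantity after heat and other stress. Its signal was 517.4 and 507.3 on the Obese arrays, against 271.9 and 270.8 on the Control arrays. The replicates of each group lay almost on top of each other, and the groups were far apart. The log2 difference was 0.92 ± 0.12 (SE), with a 95% interval of 0.63 to 1.21, or 1.89-fold (limma adjusted p = 0.269). By unadjusted p it held rank 11 of the 12929 tested probe sets. It ranged from 0.90 to 0.93 when any 1 array was left out.

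Hsph1, also called HSP110, releases nucleotide from HSP70 and takes part in dissolving aggregates. Its signal was 433.1 and 396 on the Obese arrays, against 333.4 and 266.4 on the Control arrays. Both Obese values lay above both Control values, with a gap narrower than the Control spread. The log2 difference was 0.47 ± 0.16 (95% interval 0.09 to 0.86, limma adjusted p = 0.531). Leaving out Control replicate 2 gave 0.31, and leaving out Control replicate 1 gave 0.64.

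Dnajb1, or HSP40, is the J-domain protein that pairs with inducible HSP70. Its main probe set gave 261.8 and 231.6 on the Obese arrays, against 224.3 and 203.1 on the Control arrays. The lower Obese value exceeded the higher Control value by a small margin. The log2 difference was 0.21 ± 0.14 (95% interval -0.14 to 0.56, limma adjusted p = 0.742), and 0.12 without Obese replicate 1. The second probe set separated the groups more widely, with 211.8 and 196.7 on the Obese arrays against 153 and 137.1 on the Control arrays. Its log2 difference was 0.50 ± 0.15 (95% interval 0.14 to 0.85, limma adjusted p = 0.512), so the 2 probe sets shared a direction and differed in size.

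Hspa12b is a distant HSP70 relative known for its expression in endothelium. Its signal was 38 and 40.9 on the Obese arrays, against 10.6 and 11.7 on the Control arrays. Both Control values lay under the floor of 20.8, the 20th percentile of all signals, below which values were raised to it. With the Control arrays at the floor, the estimate was 1.90-fold higher in Obese samples (limma adjusted p = 0.402). That value depends on where the floor is set. The gene passed the filter on dim signals only through its Obese arrays, so its direction was set by that filter. With the floor at the 10th percentile its log2 difference was 1.82, and a floor at the 40th percentile left it untested. Of the 11 measured endothelial markers, which summed to 3222 and 3078.1 on the Obese arrays and to 3182 and 3244.1 on the Control arrays, 5 were higher and 6 lower in mean, with a median log2 difference of -0.01. Esam, an endothelial adhesion molecule, differed by 0.15, the tight junction gene Cldn5 by 0.26 and the receptor Tie1 by -0.45.

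**Figure D2:**
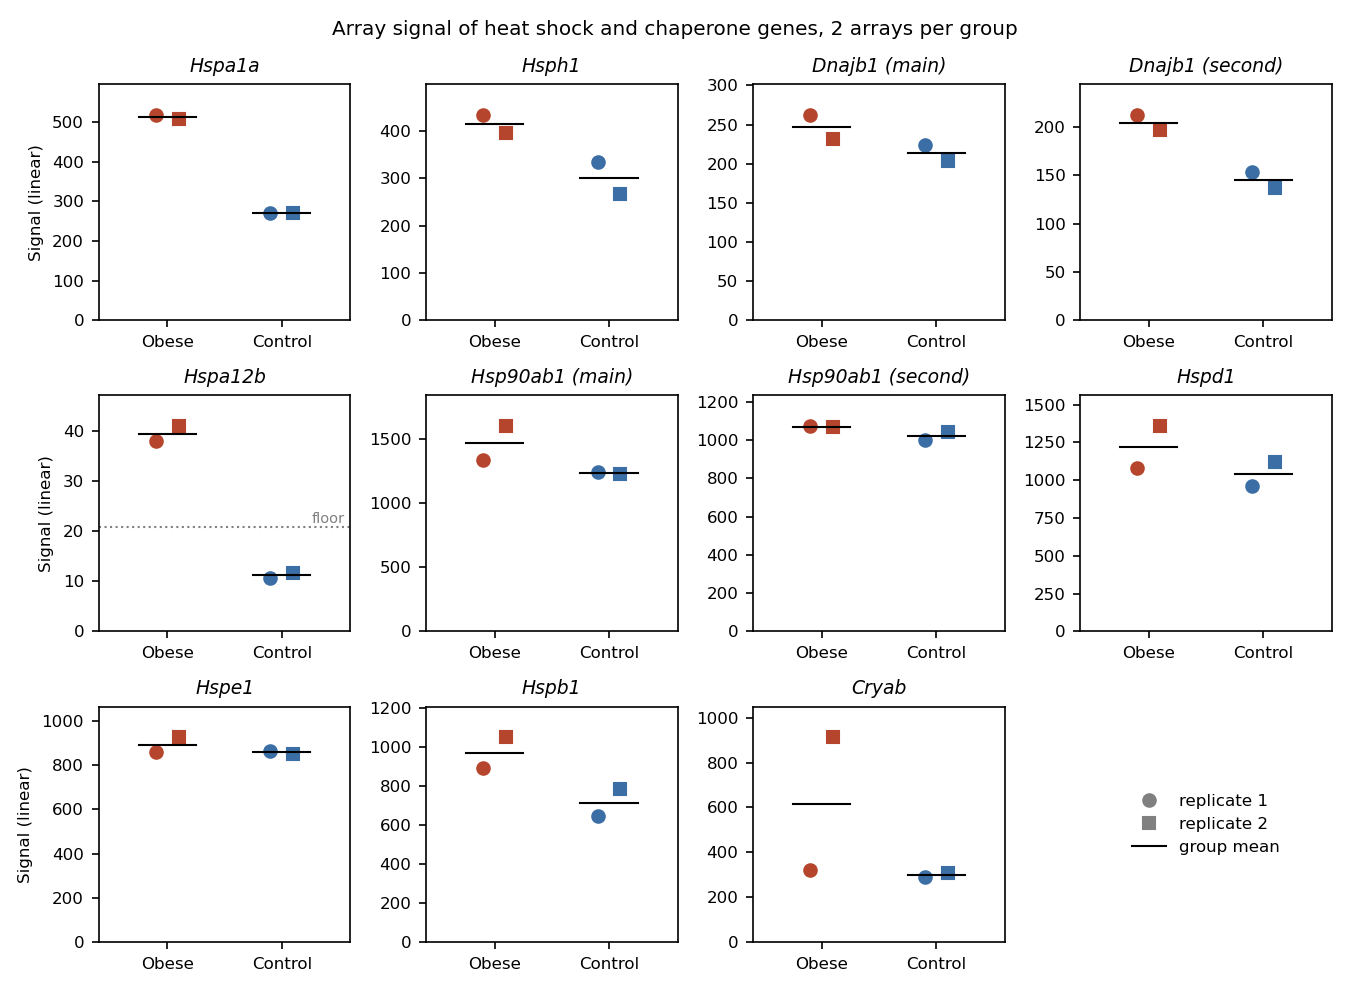
Signal on a linear scale (y axis) of each probe set on the Obese and Control arrays, circles for replicate 1 and squares for replicate 2, with a line at each group's mean. Hspa1a shows tight groups near 512.4 and 271.4 in Obese and Control samples, whereas 1 Obese array alone carries the high Cryab signal.

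Hsp90ab1 encodes the constitutive cytosolic HSP90, an abundant protein of unstressed cells. Its main probe set gave 1337.7 and 1598.7 on the Obese arrays, against 1241 and 1229.4 on the Control arrays. The Obese arrays were both higher, and they differed from each other more than the Control arrays did. The log2 difference was 0.24 ± 0.15 (limma adjusted p = 0.707), and it was 0.12 without Obese replicate 2 and 0.37 without Obese replicate 1. The second probe set, at 1072.5 and 1067.6 on the Obese arrays against 1003 and 1045.1 on the Control arrays, differed by 0.06 ± 0.12 (limma adjusted p = 0.912), a sign that turned to -0.02 with quantile normalization. The 95% interval of that second value, -0.24 to 0.37, bounds the difference to well under 2-fold on either side.

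Hspd1 and Hspe1 encode HSP60 and HSP10, the barrel and lid of the mitochondrial chaperonin, and lie head to head around the Hspe1 window printed above. Hspd1 had signals of 1078 and 1356.3 on the Obese arrays, against 960.2 and 1122.7 on the Control arrays. One Obese array lay below a Control array, so the groups overlapped. The log2 difference was 0.22 ± 0.17 (limma adjusted p = 0.767), and it was 0.05 without Obese replicate 2. Hspe1 had signals of 859.2 and 924.8 on the Obese arrays, against 861.6 and 851.6 on the Control arrays. The values hardly differed and overlapped, with a log2 difference of 0.06 ± 0.12 (95% interval -0.25 to 0.36, limma adjusted p = 0.922). The intervals of both genes overlap (-0.20 to 0.64 for Hspd1), and the difference between the genes was not tested.

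Hspb1, or HSP27, is a small heat shock protein that also stabilizes actin filaments. Its signal was 892.2 and 1051.3 on the Obese arrays, against 646.6 and 787.2 on the Control arrays. Both Obese arrays were higher, but the 2 arrays of each group differed by more than the gap between the groups. The log2 difference was 0.44 ± 0.16 (95% interval 0.05 to 0.84, limma adjusted p = 0.570). Leaving out Control replicate 1 gave 0.30, and leaving out Control replicate 2 gave 0.58.

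Cryab, alpha B-crystallin, is a small heat shock protein abundant in lens and muscle. Its signal was 322.3 and 912.3 on the Obese arrays, against 290.8 and 308.5 on the Control arrays. Obese replicate 2 stood alone, and Obese replicate 1 lay close to the Control arrays. The log2 difference of 0.86 ± 0.46 (95% interval -0.27 to 1.98, limma adjusted p = 0.677) was 0.11 without Obese replicate 2. Without Obese replicate 1 it was 1.61 (limma adjusted p = 0.0242), a fit that assumes the lone Obese array to vary as the Control arrays do. The sum of the 11 smooth muscle markers was highest on Obese replicate 1, not on Obese replicate 2, and the 12 skeletal muscle markers summed to 1099.2 and 1144.3 on the Obese arrays against 996.5 and 722.8 on the Control arrays. Most of that sum came from Myh1, a skeletal myosin, with 738.3 and 905 on the Obese arrays against 741.5 and 490.2 on the Control arrays, highest on the same array as Cryab. The other skeletal myosins Myh2 and Myh4 and myoglobin, Mb, lay under the floor on all 4 arrays. Skeletal actin, Acta1, and the troponin gene Tnnc2 lay under it on all but Obese replicate 1, where Tnnc2 reached 85.2. Of the 6 tested skeletal muscle markers, 3 were higher and 3 lower in mean in Obese samples. Whether the Myh1 signal comes from skeletal muscle was not tested. Fat cell markers were highest on Obese replicate 2, at 20114.1 for 9 genes against 16555.7 on Obese replicate 1 and 16908.2 and 16720.3 on the Control arrays. The part of cell makeup in the Cryab signal was not tested.

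**Figure D3:**
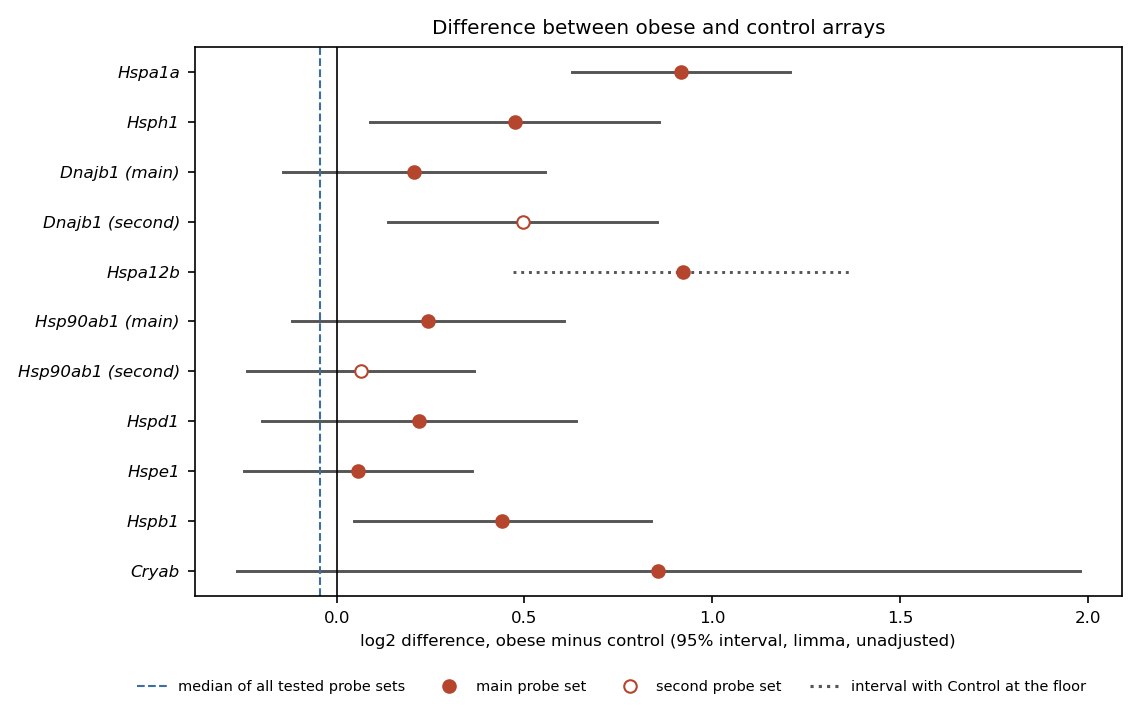
Log2 difference of Obese minus Control for each probe set (x axis) with its unadjusted 95% interval from limma; filled points are main and open points second probe sets, and the dashed line marks the median of all tested probe sets. Hspa1a, Hsph1, Hspb1 and the second Dnajb1 probe set have intervals above 0, and that of Cryab is the widest. The dotted interval of Hspa12b has its Control arrays raised to the floor, and the filter on dim signals fixed its direction.

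Over the genes, the 2 Obese arrays did not carry the difference alike. Of the 9 genes, 6 had their highest signal on Obese replicate 2 and 3 (Hspa1a, Hsph1 and Dnajb1) on Obese replicate 1. For Hspa1a the 2 Obese arrays were only 0.03 log2 units apart. The median signal over all probe sets was 74.9 on Obese replicate 2, against 81.9 on Obese replicate 1 and 82.9 and 82.6 on the Control arrays. The lowest signal lay on Control replicate 1 for 4 genes and on Control replicate 2 for 5. The groups did not overlap for 7 of the 9 main probe sets, all with Obese higher, where 15.6% of all tested probe sets were so separated upwards and 24.4% downwards. With each array centred on its median those shares were 20.4% and 18.8%, and 8 of the 9 genes were separated upwards. With quantile normalization they were 18.7% and 20.6%, and with cyclic loess 19.3% and 19.9%, each with 7 of the 9 genes. Leaving out Hspa12b, whose direction the filter fixed, 6 of 8 genes were separated upwards. The median log2 difference was 0.44 over the 9 genes and 0.34 over those 8, against -0.04 over all 12929 tested probe sets, of which 42.5% had a difference above 0. The median of the listed genes was 0.20 without Obese replicate 2, with 8 genes tested. With the floor of 20.8, no main probe set was at once separated and at least 2-fold apart, a state that 1.14% of all probe sets reached. The genes were listed with results of these arrays known, so these counts describe them and are not independent evidence.

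The wider list of chaperones and cofactors held 90 genes, of which 73 had a probe set and 70 were tested. None passed limma in either direction (smallest adjusted p = 0.467). At an unadjusted p under 0.05, 3 of the 70 genes were higher, Dnajb4, Chordc1 and Clpp, and 0 lower. At that level 3.07% of all probe sets were higher and 5.23% lower. The groups did not overlap, with Obese higher, for 23 of the 70 (32.9%, background 15.6%), and with Obese lower for 10 (14.3%, background 24.4%). The median log2 difference was 0.03, against -0.04 over all probe sets. The wider list and the 9 genes above were not tested against each other.

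Among J-domain proteins, 6 of 17 tested genes were separated upwards (35.3%, background 15.6%) and 4 downwards (23.5%, background 24.4%). Dnajb4, a close relative of Dnajb1, had signals of 352.5 and 310.6 on the Obese arrays, against 219.3 and 237.2 on the Control arrays. The groups were well apart, with a log2 difference of 0.54 ± 0.14 (limma adjusted p = 0.467). Dnaja1, another HSP70 partner, gave 651.3 and 661 on the Obese arrays against 431.9 and 570.9 on the Control arrays, a difference of 0.40 ± 0.17 (0.20 without Control replicate 1 and 0.60 without Control replicate 2). Dnajc5, a J-domain protein of vesicles, differed by -0.19. Of 5 tested relatives of HSP70, Hspa2 differed by 0.48, the mitochondrial HSP70 Hspa9 by 0.31 and Hspa12a, a homolog of Hspa12b, by -0.40. The Hspa12a value came from Control replicate 1, at 39.6 against 24 on Control replicate 2 and 23 and 23.6 on the Obese arrays.

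Of 8 tested cofactors of HSP70, 1 was separated upwards (12.5%, background 15.6%) and 1 downwards (12.5%, background 24.4%). Of 12 in the HSP90 group, 4 were separated upwards (33.3%, background 15.6%) and 1 downwards (8.33%, background 24.4%). St13, which links HSP70 to HSP90, differed by 0.31 with signals of 582.8 and 753.6 on the Obese arrays against 557.3 and 516.3 on the Control arrays. The exchange factor Bag3, a known heat shock factor target, gave -0.01, with 468.6 and 361 on the Obese arrays against 421.4 and 405.3 on the Control arrays, and its relative Bag5 gave -0.27. Chordc1, an HSP90 cochaperone, had 190.1 and 174.5 on the Obese arrays against 131.3 and 138 on the Control arrays, a log2 difference of 0.44 ± 0.14 (limma adjusted p = 0.534). The cochaperone Ptges3 differed by 0.09 and Sugt1 by -0.24, the latter as little as -0.02 with 1 array left out. Hsp90aa1 and Hspa1b had no probe set of a single symbol.

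Small heat shock proteins other than the listed pair gave 4 tested genes of 6 on the array. Hspb7 differed by 0.43 and Hspb6 by -0.06. Hspb8 overlapped between the groups, and its difference of 0.45 turned to -0.10 without Obese replicate 1. Hspb2 and Hspb3 lay under the floor on all 4 arrays. In mitochondria, all 5 tested cofactors and proteases had a difference above 0, as did 42.5% of all tested probe sets. The differences ran from 0.03 for the protease Lonp1 to 0.46 for the protease subunit Clpp. Grpel1, the exchange factor of mitochondrial HSP70, was at 0.16. Lonp1 and Clpb (0.32) overlapped between the groups. With 1 array left out they reached -0.14 and -0.11 at the lowest. The cytosolic chaperonin CCT and prefoldin gave a median of -0.07 over 13 genes, with Cct8 at 0.29, Cct4 at -0.15 and Tcp1 at -0.22. Of the 13, 5 were separated upwards (38.5%, background 15.6%) and 2 downwards (15.4%, background 24.4%).

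Of the 4 tested heat shock factors and partners, 1, Hsbp1, was separated upwards (25%, background 15.6%) and 0 downwards (background 24.4%). Hsf1, the main heat shock factor, had signals of 161.2 and 128.9 on the Obese arrays, against 157 and 141.5 on the Control arrays. The Control values lay between the Obese values, with a log2 difference of -0.05 ± 0.18 (limma adjusted p = 0.959) whose sign changed in 5 of 15 alternatives. Its mRNA level does not measure its activity. Hsf2 differed by -0.46 and Hsbp1, which binds heat shock factor, by 0.18. The groups overlapped for Hsf2, and its difference was as little as -0.11 with 1 array left out. Of the other targets, Serpinh1 (HSP47, the collagen chaperone) differed by 0.03. Hmox1, heme oxygenase, had 252.6 and 267.1 on the Obese arrays against 314.8 and 907.6 on the Control arrays, a log2 difference of -1.04 that was -0.28 without Control replicate 2.

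**Figure D4:**
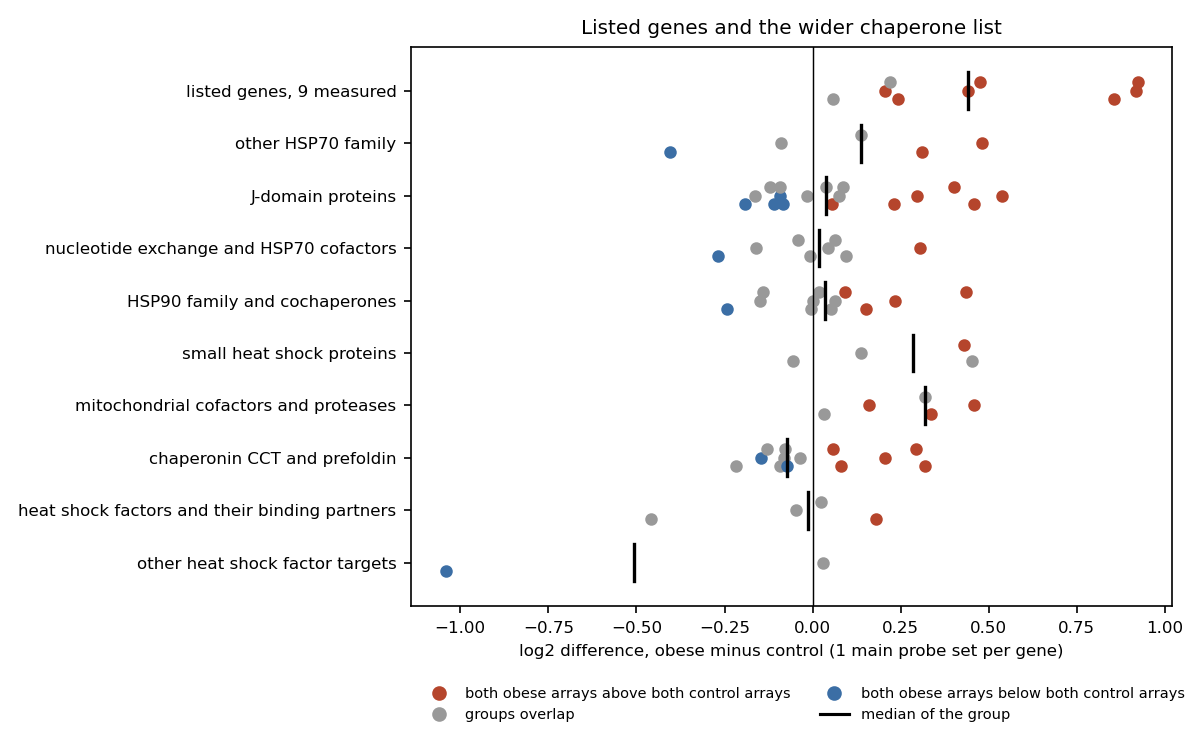
Log2 difference of Obese minus Control (x axis) for the main probe set of each tested gene, by group (rows), with black lines at group medians. Red and blue points are genes whose Obese arrays both lie above or both below the Control arrays, and grey points overlap. The 9 listed genes and the 5 mitochondrial cofactors and proteases all lie above 0, as do 42.5% of all tested probe sets. Each other group has genes on both sides of 0.

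The signal differences were also set beside the promoter letters across the array. Over 29 tested genes outside the listed ones with at least 3 facing units in a row, the median log2 difference was -0.05 and 24.1% were separated upwards, against -0.04 and 16.4% over all 7495 tested genes with a window. Over 836 genes with a pair, the median was -0.05 and 14.6% were separated upwards. Of the wider list, 4 genes held such an array of units: Chordc1 at 0.44, Dnaja1 at 0.40, Serpinh1 at 0.03 and Cct4 at -0.15. Among the listed genes themselves, those with a pair differed by 0.47 (Hsph1), 0.44 (Hspb1), 0.22 (Hspd1), 0.21 (Dnajb1) and 0.06 (Hspe1). Those with 0 pairs differed by 0.92 (Hspa1a), 0.92 (Hspa12b, with its Control arrays at the floor) and 0.24 (Hsp90ab1). Bases outside the windows were not searched, so 0 pairs does not mean that a gene lacks the element. A link between the letters and the differences was not tested.

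Other gene groups differed between the same arrays. Immediate early genes, which respond within minutes to stimuli including tissue handling, summed to 6867.4 and 6794.4 on the Obese arrays, against 5274.6 and 5652.7 on the Control arrays, over 21 genes. Of these, 9 were separated upwards (42.9%, background 15.6%) and 2 downwards (9.52%, background 24.4%). The 9 include Jund, with 23.9 and 21.8 on the Obese arrays against 0.9 and 2.6 on the Control arrays. It passed the filter on dim signals only through its Obese arrays, so its direction was fixed by that filter. The median log2 difference over the 21 genes was 0.07, with 13 genes above 0 and 8 below, so the rise was not shared by the list as a whole. Dusp1, a stress-induced phosphatase, had 1189.2 and 1171.6 on the Obese arrays against 721.1 and 659.1 on the Control arrays, a log2 difference of 0.78, while Atf3, a stress factor, differed by -1.04. Macrophage markers were lower, with sums of 7030.2 and 6963 on the Obese arrays against 10037.3 and 11979.7 on the Control arrays. Of the 12 genes, 11 were separated downwards (91.7%, background 24.4%). The part of these gene groups, and of the cells they mark, in the heat shock signals was not tested.

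**Figure D5:**
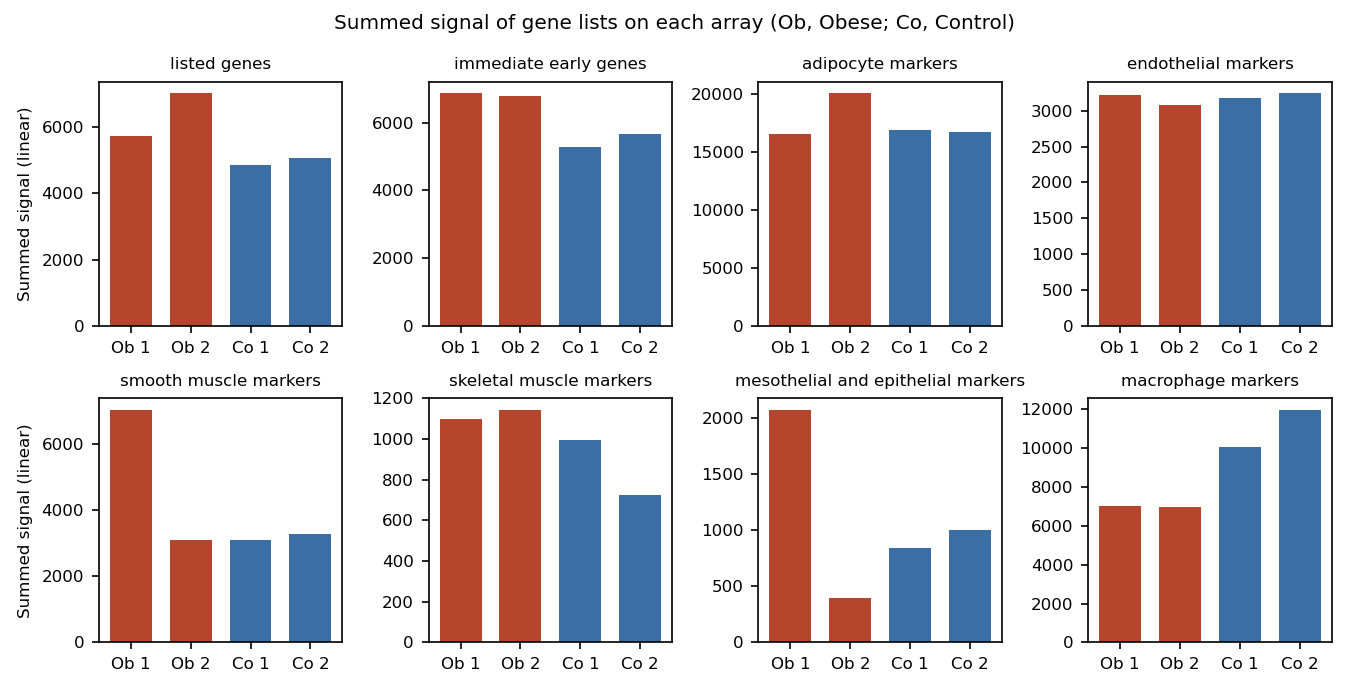
Summed signal (y axis, linear, from 0) of the listed genes and of 7 companion lists on each array, Obese left of Control. The sums of the listed genes and of the immediate early genes are higher on both Obese arrays, and that of macrophage markers is lower there. The sums of smooth muscle and epithelial markers are high on Obese replicate 1.

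The genes most like Hspa1a were found by the Euclidean distance between log2 signals centred on each gene's mean over the 4 arrays. The nearest of 9002 genes were Ly6g6e (0.103), Pou2f2 (0.124), Rnf185 (0.124), Dusp1 (0.166) and Skic2 (0.185). Ly6g6e and Skic2 lay under the floor on both Control arrays and Rnf185 on one, so their distances depend on the floor, and 150 genes lay within a distance of 0.5. The genes most like Cryab, which had the widest range over the arrays, were C2h1orf52, Stc2, Ogfr, Myl4 and Mme. The first 3 had at least 1 array under the floor, so their distances depend on it too. Mme, the peptidase neprilysin, had 222.2 and 478.3 on the Obese arrays against 209.4 and 199.9 on the Control arrays, high on the same single array as Cryab. With 4 arrays, 57 genes had a Pearson correlation over 0.99 with Hspa1a, so likeness of this kind is a description.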

How the data were processed

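Per the labels, total RNA of 4 samples was read on 1 single-colour array each. The authors' deposited table holds 1 linear intensity for every probe set of each array. Software and normalization: not given in the sources used here. The deposited intensities appear scaled, from the values: means after trimming 2% at each end lay between 150.026 and 150.03. They were used as deposited. Of 15923 probe sets, 57 controls were left out; 12783 had 1 symbol, 312 several and 2771 none. Gene symbols were checked through Entrez identifiers against RefSeq on GRCr8 (12748 found, 0 changed).

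Values were raised to a floor of 20.8 (20th percentile) and log2 was taken. Probe sets with at least 2 arrays above the floor (12929) were compared, Obese minus Control, with limma 3.58.1 in R 4.3.3 (lmFit, eBayes with a trend; two-sided; Benjamini-Hochberg over all probe sets; threshold 0.05). Errors are moderated standard errors with 5.83 degrees of freedom. An exact permutation test of 2 against 2 cannot go below p = 0.333 and was not run. The number of arrays limits the precision, and no detection calls or background values were used. The code was tested on simulated data.

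Members and gene lists were chosen with earlier results of these data known. All members were named, with the genes of largest and smallest t and highest mean signal in each group of the wider list. Also named were a few fixed genes, at most 3 genes per companion list, and the 5 genes nearest to Hspa1a and to the member of widest range. Fabp4, Acta1, Tnnc2, Mb, Myh2, Myh4, Jund, Clpb, Hspb2 and Hspb3 were named after their values were seen. Alternatives were 3 scalings, 2 floors, a pseudocount of 16, 2 filters, 2 variance models, a replicate block, each array left out, and averaging of all probe sets per gene.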

Additional observations from a re-analysis of the deposited data

How the results depend on the processing

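With 2 arrays per group, each array carries much of every value, and the values of dim genes such as Hspa12b depend on the floor. The number of probe sets past the threshold (0) was 3 with a pseudocount of 16 in place of the floor, 6 with no filter, 1 without a trend and 1 with robust eBayes, and 0 to 43 with 1 array left out (43 without Obese replicate 1, 40 without Obese replicate 2). Probe sets whose groups were separated by at least 2-fold (147, 53 of them higher) numbered 314 (119 higher) with the floor at the 10th percentile, 71 (20 higher) at the 40th, and 176 to 301 with 1 array left out. The median of the listed genes (0.44) was 0.34 with the floor at the 40th percentile and with all 4 arrays required above the floor, since Hspa12b then dropped out, and 0.20 to 0.40 with 1 array left out. The median of the wider list (0.03) was 0.0928 with each array centred on its median, 0.0487 after quantile normalization, 0.0481 after cyclic loess, and 0.0422 to 0.0866 with 1 array left out. Of 161 tested values of the listed probe sets under the alternatives, 159 kept their direction and their side of the threshold, and 9 means over all probe sets per gene, which were not tested, kept their direction. The exceptions were the second probe set of Hsp90ab1, -0.0182 with quantile normalization, and Cryab, which passed without Obese replicate 1 (1.61). The cause was not tested.

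Same-numbered arrays share only a number. Deviations of Obese replicate 1 and Control replicate 1 from their group means correlated at r = 0.0482 over the probe sets. With the replicate block, 0 probe sets passed, and the medians of 0.44 and 0.03 did not change.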
